A study of Homo sapiens with 15 samples.

Results

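CCDC genes are named for a coiled-coil domain, the rope-like winding of alpha helices around each other by which many proteins pair and build scaffolds. The name records this fold and not a shared function or descent, so the genes listed under it work in cilia and centrosomes, splicing, mitochondria, membrane traffic and signalling. Of 13056 genes in the deposited table, the 67 whose symbol is CCDC followed by a number and at most 1 letter are described here. A further 2 symbols that contain CCDC, CCDC15-DT and CCDC183-AS1, lie outside that rule.

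The series measured distal poly(A) site use by RNA sequencing in 15 libraries from HEK293T cells, an established human embryonic kidney line. All libraries came from cells with a short hairpin RNA: 3 libraries had a control hairpin (shControl, genotype given as WT), and 2 libraries each had a hairpin against HDAC1, PABPN1, PCBP2, SF3B4, U2AF2 or ZNF384. HDAC1 is a histone deacetylase, PABPN1 the nuclear poly(A)-binding protein, PCBP2 a poly(C)-binding protein, SF3B4 a subunit of the U2 snRNP, U2AF2 a splicing factor that recognises the pyrimidine-rich stretch ahead of 3' splice sites, and ZNF384 a zinc finger transcription factor. Hairpin sequences, time after transduction and whether libraries came from separate cultures are not stated in the labels, so p-values measure only the spread between these libraries. The labels name both nuclear RNA isolation and a total RNA kit, and the shControl library names alone carry the suffix nuc, so any difference from shControl cannot be told apart from whatever that suffix marks. Neither the strength of a knockdown nor the identity of the cells could be checked, because the table holds no expression levels.

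Most human genes have more than 1 site at which the transcript can be cut and given a poly(A) tail. Use of a proximal site shortens the 3' UTR, which can remove binding sites for microRNAs and RNA-binding proteins, and the choice of site depends on the cleavage machinery, on splicing factors at the last exon and on RNA-binding proteins such as PABPN1. The measurement was PDUI, the estimated fraction of a gene's RNA that runs to its distal site: 1 stands for distal use alone and a value near 0 for mostly proximal use. PDUI gives the balance of ends and says nothing about how much RNA a gene makes. The depth behind each value is unknown, since the table has no read counts.

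The 3' ends of the 7 genes that passed a test against shControl are shown first, because the distal end is what PDUI counts. Each line gives the last 30 bases of the transcript model in GENCODE release 29 (GRCh38), 5' to 3' on the transcript strand, with the hexamer AATAAA in capitals where it occurs. AATAAA is the canonical signal that the cleavage machinery reads a short way upstream of the cut.
CCDC9: ccgcgttagtctcccatggaggccctgggc
CCDC97: ttaaatttgtttacaatatactttgctata
CCDC50: ataaatactgccaagtgtggatcagttgga
CCDC127: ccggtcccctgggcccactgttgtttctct
CCDC77: actattttcAATAAAatatttcactcaaaa
CCDC71L: taactgtaAATAAAttttagagaatacata
CCDC80: ttgcctgtaAATAAAaggtttatttgatta

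In genome order these ends lie at chr3:112596794-112596823 on the minus strand (CCDC80), chr3:191398641-191398670 on the plus strand (CCDC50), chr5:196871-196900 minus (CCDC127), chr7:106656765-106656794 minus (CCDC71L), chr12:442613-442642 plus (CCDC77), chr19:41324854-41324883 plus (CCDC97) and chr19:47273672-47273701 plus (CCDC9), each at the end of the 3' UTR in the last exon. The table's model carries another version number than release 29 for CCDC50, CCDC127, CCDC97 and CCDC71L, so the ends of those 4 in the authors' annotation may differ from the ones printed. No last exon of the 7 overlaps an exon of another gene. AATAAA stands in the last 30 bases of CCDC77, CCDC71L and CCDC80, and neither AATAAA nor the variant ATTAAA is in that window of the other 4. Across all 67 CCDC genes 35 (52.2%) had AATAAA and 8 (11.9%) had ATTAAA, counting transcripts with both hexamers under each, against 50.4% and 14.4% of the 12701 genes of the table found in release 29. At least 1 of the hexamers was present in 42 CCDC genes (62.7%) and in 63.0% of all genes. Only the transcript strand was searched. A last exon that overlaps an exon of another gene was found in 16 CCDC genes (23.9%), against 25.6% of those 12701 genes. They include CCDC22, CCDC25, CCDC43, CCDC74B, CCDC85C, CCDC90B, CCDC93, CCDC103, CCDC113, CCDC157, CCDC191 and CCDC9B, all named below. Their values are uncertain for that reason.

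In shControl the CCDC genes covered nearly the whole PDUI scale. Their median was 0.617, against 0.573 for all genes. A mean of 0.8 or more was found in 19 of the 67 (28.4%, against 26.4% of all genes), and 8 (11.9%, against 16.7%) lay at 0.2 or below. The highest shControl means were those of CCDC69, a spindle midzone protein (0.990), CCDC88A, the actin-binding signalling protein girdin (0.987), and CCDC77 (0.983). The lowest were those of CCDC80 (0.0167), CCDC58, a protein of the mitochondrial intermembrane space (0.0700), and CCDC127 (0.0800). By role, the 4 mitochondrial members had the lowest median shControl mean, 0.0883, since CCDC90B (0.0967) was low as well and CCDC51 (0.673) was not. The 10 members of the list for signalling, transcription and protein stability had a median of 0.822. The 10 for cilia and centrosomes had a median of 0.750, the 6 for membrane traffic 0.763 and the 8 for splicing, RNA and ribosome biogenesis 0.538, while 29 CCDC genes stood in no role list and had a median of 0.473.

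Annotated 3' UTRs of the 61 CCDC genes with a protein-coding transcript model ran from 39 to 15066 bases, with a median of 756 bases, against 1298.5 bases for all such genes of the table. Across these 61 genes UTR length and shControl PDUI had a Spearman rho of 0.24 and, with length as log10, a Pearson r of 0.17. Over 9795 genes of the table the values were 0.10 and 0.08. These are descriptions across genes of the same 3 libraries, which are not independent replicates. After CCDC85C (15066 bases, shControl PDUI 0.843), the longest UTRs were those of CCDC80 (8623 bases), CCDC127 (8426 bases) and CCDC50 (6910 bases), all of them among the 7 genes that passed a test against shControl. CCDC85C and the CCDC genes ranked 5 to 9 by UTR length passed none. The share called among all genes of like UTR length was not computed, so a link between UTR length and calls was not tested. The shortest UTR among the 7 was that of CCDC9, with 241 bases.

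**Figure D1:**
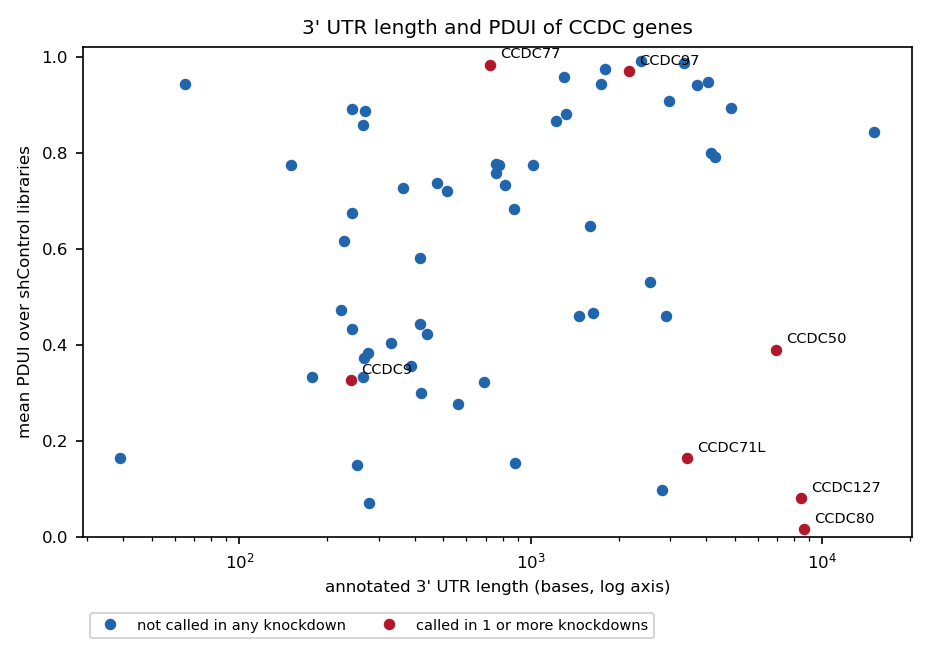
Mean PDUI over the shControl libraries (vertical axis, fraction) against the annotated 3' UTR length in bases (horizontal log axis) for the 61 CCDC genes with a protein-coding transcript model. Red points are the 7 genes called against shControl in at least 1 knockdown; CCDC80, CCDC127 and CCDC50 sit at the long end with PDUI of 0.39 or less, and CCDC97 and CCDC77 sit near 1.

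Each knockdown was then compared with shControl in a limma fit over all genes, with a call at an adjusted p under 0.05. Of the 67 CCDC genes 7 were called in at least 1 of the 6 comparisons and 60 in none, while 12.1% of the 12805 genes tested were called in at least 1. The 7 were CCDC9, CCDC50, CCDC71L, CCDC77, CCDC80, CCDC97 and CCDC127, with 12 calls between them. CCDC9, CCDC50, CCDC71L and CCDC127 were called in at least 2 comparisons, which 5.01% of all genes were. Both shares are near those of all genes, and what follows concerns the single genes. The same shControl libraries enter all 6 comparisons, so calls in several knockdowns are not independent of each other.

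**Figure D2:**
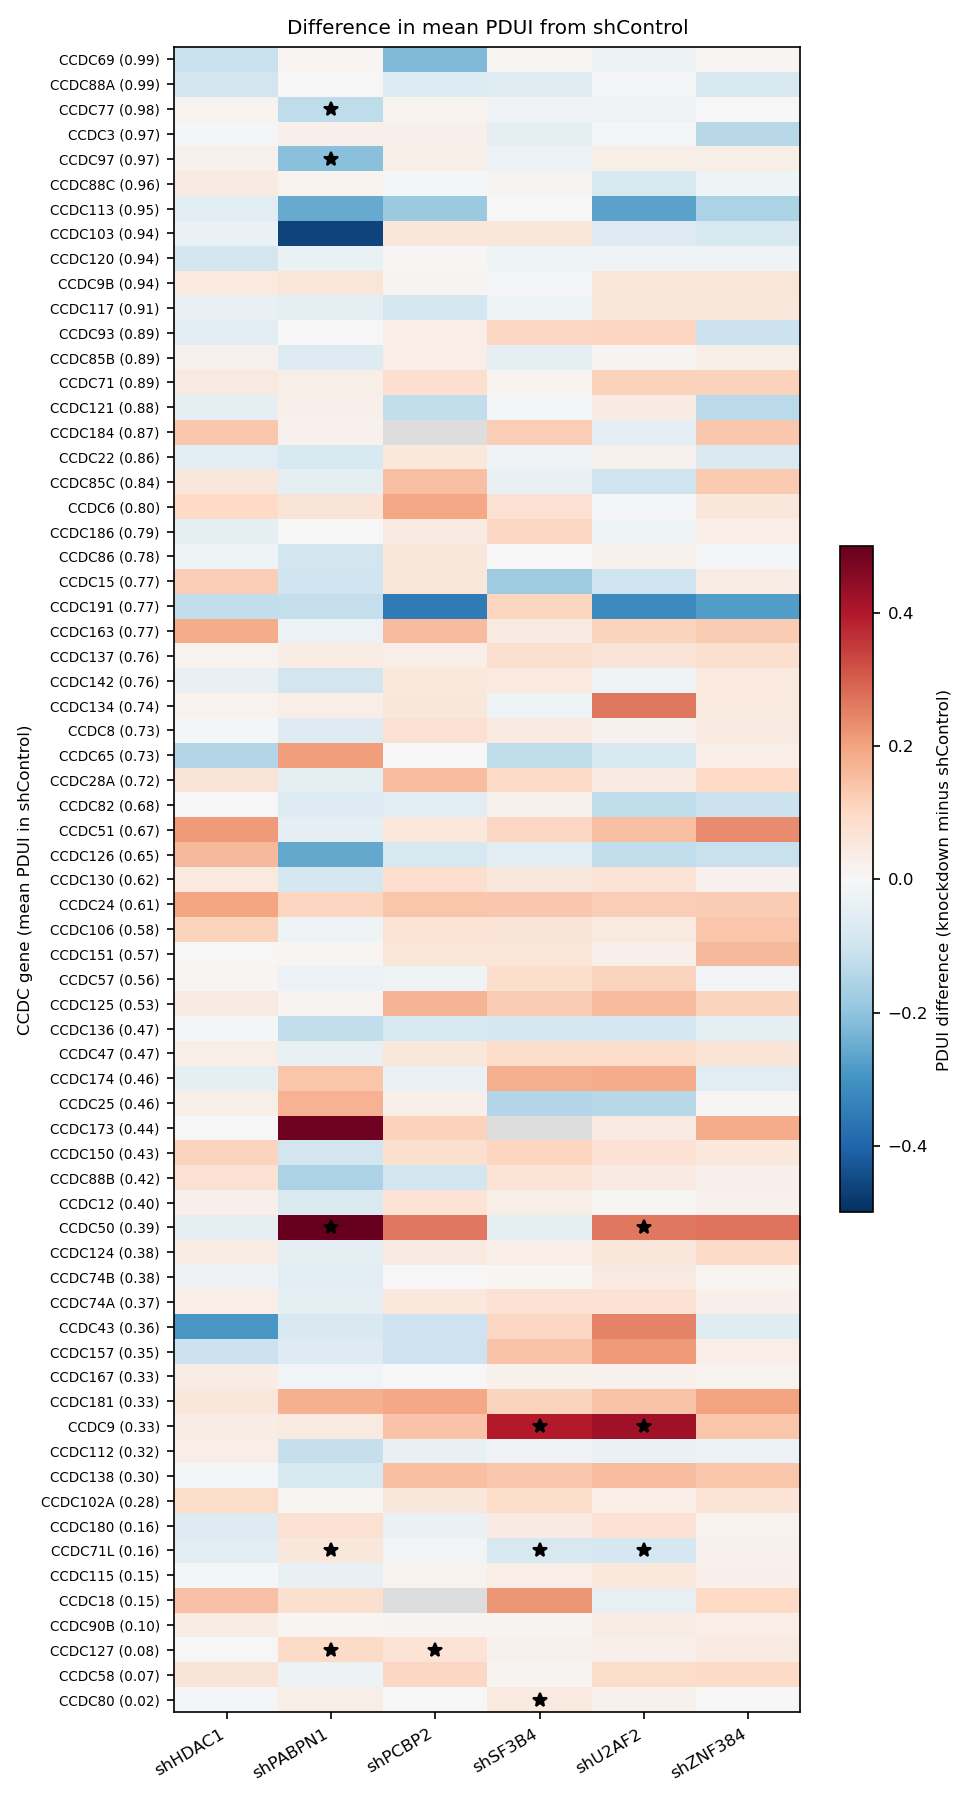
Difference in mean PDUI from shControl (colour; red higher, blue lower, scale from -0.5 to 0.5) for the 67 CCDC genes in rows, ordered by their mean in shControl, and the 6 knockdowns in columns. Stars mark the 12 calls, grey marks a knockdown without a value, and means are over the libraries that have one; most rows are pale, and the darkest starred cells are CCDC50 in shPABPN1 and CCDC9 in shSF3B4 and shU2AF2.

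CCDC9, which is associated with the exon junction complex left on spliced RNA, moved towards its distal site in both knockdowns of 3' splice site factors. Its PDUI in the shControl libraries was 0.34, 0.30 and 0.34. In shU2AF2 it was 0.73 and 0.77, and in shSF3B4 it was 0.79 and 0.66. All 4 of these libraries lay above every other library of the series, of which the highest, shZNF384 replicate 1, had 0.49. Mean PDUI rose from 0.327 ± 0.0231 (SD, n = 3) in shControl by 0.423 (SE 0.0465, adjusted p = 0.000576, limma) in shU2AF2 and by 0.398 (SE 0.0465, adjusted p = 0.00125, limma) in shSF3B4. Against the mean of the other 5 knockdowns, a contrast that the shControl means do not enter, CCDC9 was higher by 0.271 in shU2AF2 (adjusted p = 0.00356, limma) and by 0.241 in shSF3B4 (adjusted p = 0.00616, limma). In shPCBP2 both libraries had 0.47, in shZNF384 they had 0.49 and 0.44, in shHDAC1 0.37 and 0.36, and in shPABPN1 0.44 and 0.30, none of which passed against shControl. The call in shU2AF2 held in 10 of 10 alternative fits; that in shSF3B4 was lost only in the fit of these 2 groups alone (adjusted p = 0.062, limma).

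CCDC97, a protein found in spliceosome preparations, was almost wholly distal except after PABPN1 knockdown. PDUI was 0.91, 1 and 1 in shControl, and 0.78 and 0.74 in shPABPN1. The other 10 knockdown libraries lay between 0.91 and 1, so the shPABPN1 libraries were below all the rest. The mean fell from 0.970 ± 0.0520 (SD, n = 3) by 0.210 (SE 0.0276, adjusted p = 0.00288, limma), and against the other 5 knockdowns it fell by 0.226 (adjusted p = 0.000858, limma). Of the 8 members in the splicing, RNA and ribosome biogenesis list, CCDC9 and CCDC97 were the 2 called in at least 1 comparison with shControl, as 12.1% of all genes were. CCDC12, another spliceosome protein, and CCDC124, a factor that binds idle ribosomes, were called only against the other 5 knockdowns. CCDC12 had 0.33 in both shPABPN1 libraries, below every other library (lowest 0.38), and differed from the other knockdowns by -0.104 (adjusted p = 0.0382, limma). CCDC124 had 0.37 and 0.31 in shPABPN1, which overlapped shControl (0.35, 0.38 and 0.42), and differed from the other knockdowns by -0.0970 (adjusted p = 0.0251, limma).

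CCDC50, also called Ymer, is a ubiquitin-binding protein of EGF receptor and NF-kappaB signalling. Its shControl libraries had PDUI of 0.39, 0.37 and 0.41, and shPABPN1 had 1 and 0.78. Values were 0.62 and 0.69 in shPCBP2, 0.67 and 0.64 in shU2AF2, and 0.60 and 0.72 in shZNF384, while shHDAC1 had 0.33 and 0.36 and shSF3B4 0.35 and 0.33. The libraries thus fell into a low set of shControl, shHDAC1 and shSF3B4, at 0.41 or below, and a high set of the other 4 knockdowns, at 0.60 or above, with no library in between. The rise of 0.500 in shPABPN1 was the largest called difference of any CCDC gene against shControl (SE 0.0603, adjusted p = 0.00177, limma). In shU2AF2 the rise was 0.265 (SE 0.0603, adjusted p = 0.0295, limma). The differences in shPCBP2 (0.265, adjusted p = 0.0995, limma) and shZNF384 (0.270, adjusted p = 0.0727, limma) were of the same size and missed the threshold, and more genes were called in the shU2AF2 comparison (7.27%) than in those 2 (1.17% and 1.5%). The shU2AF2 call was lost when any 1 of its 5 libraries was left out, at adjusted p from 0.0645 to 0.151. Against the other 5 knockdowns CCDC50 was higher in shPABPN1 by 0.359 (adjusted p = 0.00434, limma) and lower in shHDAC1 (-0.295, adjusted p = 0.0105, limma) and shSF3B4 (-0.301, adjusted p = 0.00745, limma).

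CCDC127, a mitochondrial protein, ended mostly at its proximal site throughout. PDUI was 0.07, 0.10 and 0.07 in shControl, 0.18 and 0.17 in shPABPN1, and 0.16 and 0.14 in shPCBP2. These 4 knockdown libraries were above all others, whose highest value was 0.13 in shZNF384. The rise from 0.0800 ± 0.0173 (SD, n = 3) was 0.0950 in shPABPN1 (SE 0.0115, adjusted p = 0.00182, limma) and 0.0700 in shPCBP2 (SE 0.0115, adjusted p = 0.0275, limma). The shPCBP2 call held in 3 of 10 alternative fits, and was lost without shControl replicate 1 or 3 or without either shPCBP2 library (adjusted p from 0.0763 to 0.163). Of the other mitochondrial members, CCDC58 had 0.001 and 0.09 in shPABPN1, against 0.07, 0.06 and 0.08 in shControl, and differed from the other 5 knockdowns by -0.0985 (adjusted p = 0.0421, limma). That difference rests on an entry at 0.001, the lowest value the table contains: without it, in shPABPN1 replicate 1, it was -0.054 (adjusted p = 0.344). CCDC90B and CCDC51 passed no test in the fit of all 15 libraries; CCDC51 was called against the other 5 knockdowns in shPABPN1 when only the 12 knockdown libraries were fitted.

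CCDC77, a centrosome protein, resembled CCDC97 in its pattern. PDUI was 0.95, 1 and 1 in shControl and 0.85 and 0.86 in shPABPN1, the lowest pair of the series. The remaining 10 knockdown libraries ranged from 0.93 to 1. The mean fell from 0.983 ± 0.0289 (SD, n = 3) by 0.128 (SE 0.0217, adjusted p = 0.0106, limma) and, against the other 5 knockdowns, by 0.128 (adjusted p = 0.00453, limma). The call against shControl held in 6 of 10 alternative fits, and was lost without shPABPN1 replicate 1 (adjusted p = 0.0754) and on the arcsine square root scale, which stretches values near 1 (adjusted p = 0.0971). CCDC77 was the 1 of 10 members of the cilia and centrosome list called in at least 1 comparison with shControl, against 12.1% of all genes. CCDC113, a ciliary protein of that list, had means of 0.695 in shPABPN1 and 0.680 in shU2AF2 against 0.947 in shControl, with adjusted p of 0.205 and 0.156 (limma).

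CCDC71L, a gene with 1 exon, was called in more comparisons than any other CCDC gene. PDUI was 0.19, 0.15 and 0.15 in shControl, 0.22 in both shPABPN1 libraries, 0.08 and 0.09 in shSF3B4, and 0.08 and 0.07 in shU2AF2. It was 0.11 in both shHDAC1 libraries, 0.15 in both shPCBP2 libraries, and 0.19 and 0.18 in shZNF384. The shPABPN1 libraries were the highest of the series and the shSF3B4 and shU2AF2 libraries the lowest. The mean of 0.163 ± 0.0231 (SD, n = 3) rose by 0.0567 in shPABPN1 (SE 0.0111, adjusted p = 0.0215, limma), fell by 0.0783 in shSF3B4 (SE 0.0111, adjusted p = 0.00338, limma) and fell by 0.0883 in shU2AF2 (SE 0.0111, adjusted p = 0.00124, limma). The shPABPN1 call held in 3 of 10 alternative fits. It was lost without shControl replicate 2 (adjusted p = 0.0603, limma) or 3 (0.0683), and without either shPABPN1 library. The shSF3B4 call held in 7 of 9 and the shU2AF2 call in 8 of 10. Both were lost with libraries centred on their medians (adjusted p = 0.103 and 0.064, limma) and in fits of the 2 groups alone (0.139 and 0.0974). Against the other 5 knockdowns the shPABPN1 mean was higher by 0.0990 (adjusted p = 0.000529, limma) and the shZNF384 mean by 0.0570 (adjusted p = 0.0387, limma), while shSF3B4 (-0.0630, adjusted p = 0.00364, limma) and shU2AF2 (-0.0750, adjusted p = 0.00145, limma) were lower.

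CCDC80 encodes a secreted protein of the extracellular matrix. PDUI was 0.02, 0.01 and 0.02 in shControl and 0.08 and 0.05 in shSF3B4. Values in shPABPN1 (0.05 and 0.04) and shU2AF2 (0.05 and 0.03) lay above shControl as well, and overlapped those of shSF3B4. The rise of 0.0483 in shSF3B4 (SE 0.0101, adjusted p = 0.0258, limma) was a difference of a few hundredths in a gene whose values carry 2 decimals. It held in 2 of 9 alternative fits, and was lost without any 1 of the shControl libraries or without shSF3B4 replicate 1 (adjusted p from 0.0556 to 0.171).

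**Figure D3:**
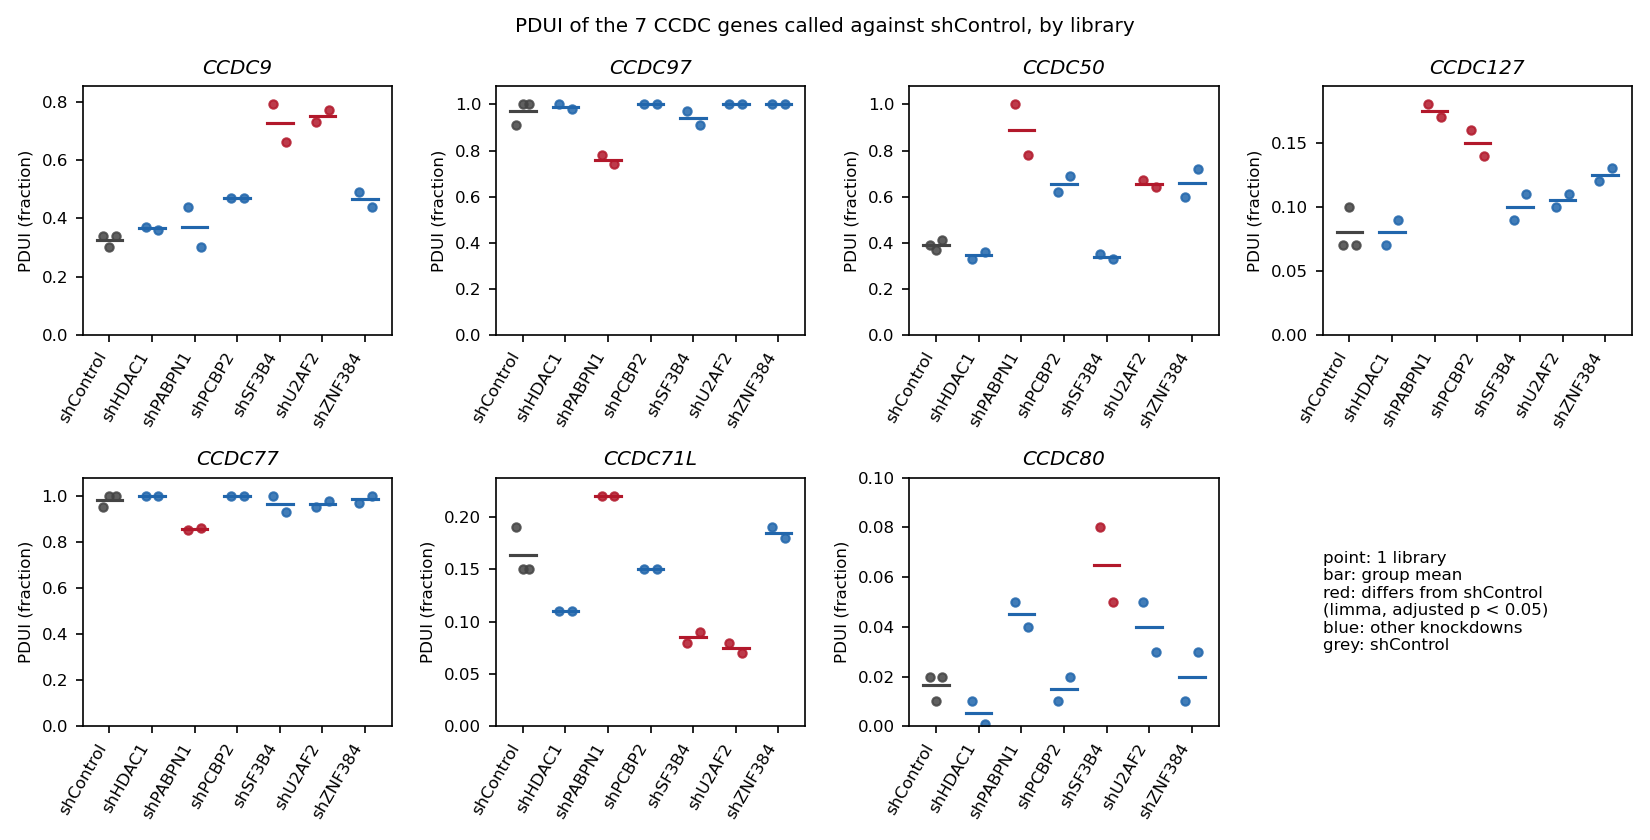
PDUI (fraction, axis from 0, scaled for each gene) of the 7 called CCDC genes in each library (points) with the group mean (bar); red marks a knockdown called against shControl. CCDC9 is high in shSF3B4 and shU2AF2 alone, CCDC97 and CCDC77 are low in shPABPN1 alone, and CCDC50 divides into groups at 0.41 or below and at 0.60 or above.

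Taken by knockdown, shPABPN1 gave 5 calls among 63 CCDC genes tested (7.94%, against 4.72% of all genes): CCDC50, CCDC127 and CCDC71L rose (3.99% of all genes did), and CCDC97 and CCDC77 fell (0.725%). The median difference over the 63 was -0.0283, against -0.0093 over all genes. In shU2AF2, 3 of 66 were called (4.55%, against 7.27%), with CCDC9 and CCDC50 higher and CCDC71L lower. In shSF3B4, 3 of 64 were called (4.69%, against 5.42%), with CCDC9 and CCDC80 higher and CCDC71L lower. The median difference was 0.0317 in both of these comparisons, against 0.0117 over all genes in each. In shPCBP2, 1 of 64 was called (1.56%, against 1.17%), with a median difference of 0.0400 against 0.0150. No CCDC gene was called by limma in shHDAC1 (65 tested, 0.0243% of all genes called) or in shZNF384 (67 tested, 1.5% of all genes called). At an unadjusted p under 0.05 by limma there were 2 CCDC genes in shHDAC1 and 8 in shZNF384. The share of all genes at that looser threshold was not computed. In shHDAC1 the 2 were CCDC71L (0.110 against 0.163, adjusted p = 0.349) and CCDC51, a protein of the inner mitochondrial membrane (0.885 against 0.673, adjusted p = 0.708).

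**Figure D4:**
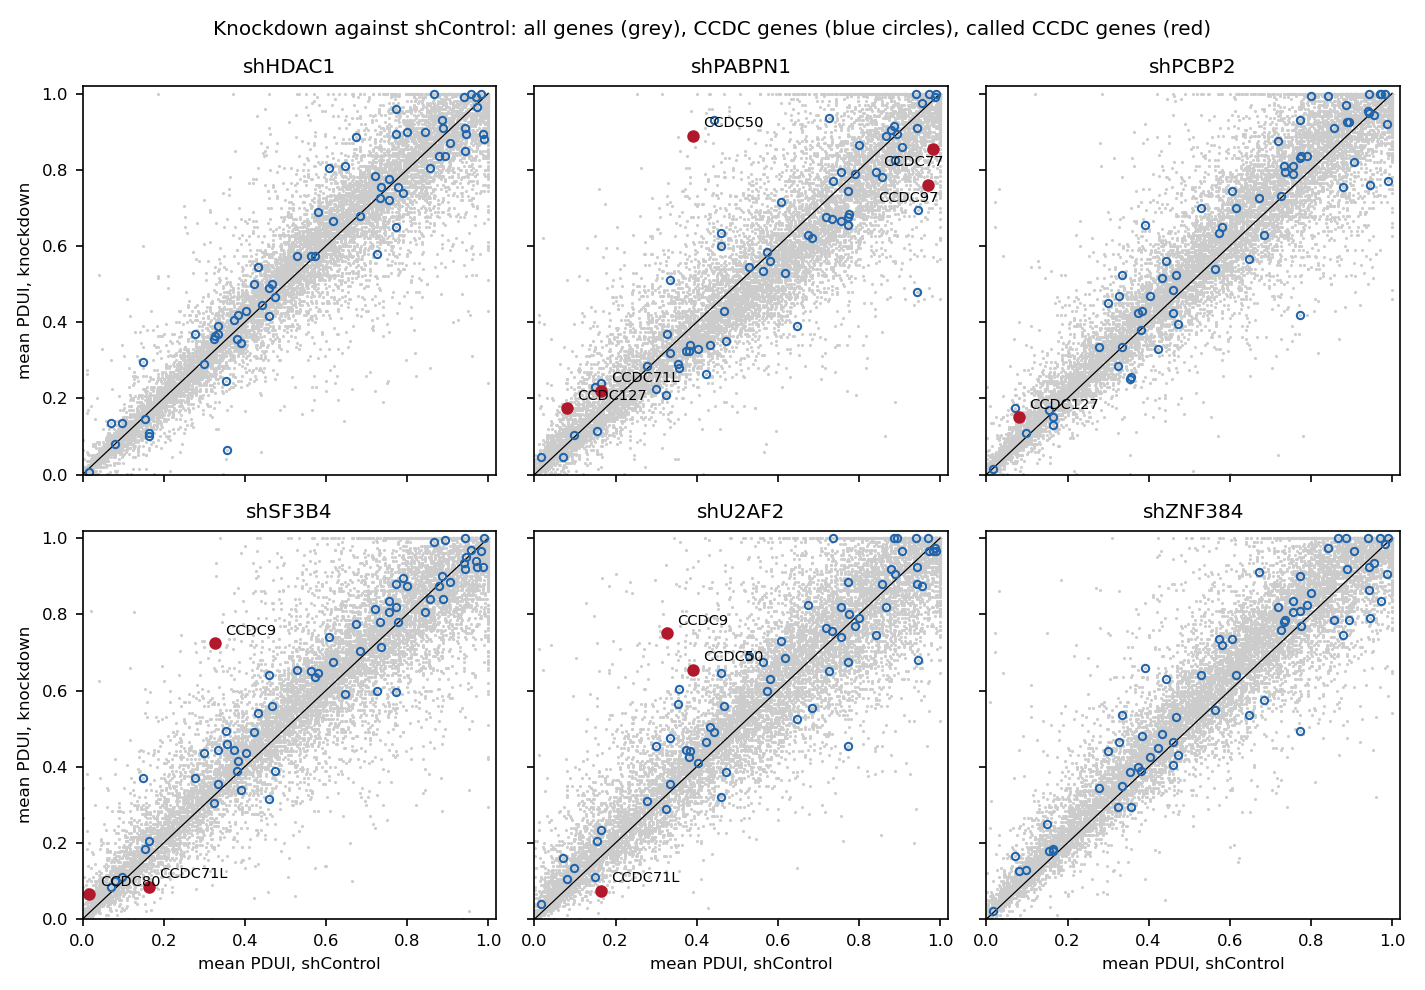
Mean PDUI in each knockdown (vertical axis) against mean PDUI in shControl (horizontal axis), both as fractions, for all genes (grey) and the CCDC genes (blue circles, called ones in red with their symbol); the line marks equal values. CCDC50 lies farthest from the line among called genes in shPABPN1 (0.890 against 0.390), and CCDC9 in shSF3B4 and shU2AF2.

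Comparison of each knockdown with the other 5 kept shControl out of the difference, and 60 CCDC genes had a value in all 12 knockdown libraries. In shPABPN1, 11 of the 60 were called (18.3%, against 11.2% of all genes): CCDC71L, CCDC50, CCDC127 and CCDC25 were higher (4.19% of all genes), and CCDC97, CCDC77, CCDC9, CCDC124, CCDC12, CCDC58 and CCDC47 were lower (7.05%). Mean PDUI over the complete genes was lower in the shPABPN1 libraries (0.533 and 0.539) than in any other knockdown library (0.556 or more). Once libraries were centred on their medians 4 CCDC genes were higher and 1, CCDC97, lower, while 898 of 11463 genes of the table were called. CCDC25, known as a receptor for DNA of neutrophil extracellular traps, had 0.52 and 0.75 in shPABPN1, above shSF3B4 and shU2AF2 (0.28 to 0.35) and overlapping shPCBP2 (0.54 and 0.43). Its difference was 0.220 (adjusted p = 0.0325, limma), or 0.105 without shPABPN1 replicate 2 (adjusted p = 0.225) and 0.335 without replicate 1. Its last exon overlaps an exon of AC013643.2 on the other strand, so its value is uncertain. CCDC47, part of the machinery that inserts membrane proteins at the endoplasmic reticulum, had 0.38 and 0.48 in shPABPN1 and differed by -0.105 (adjusted p = 0.0495, limma), or by -0.055 without replicate 1 (adjusted p = 0.403). In shHDAC1 3 were called (CCDC50, CCDC127 and CCDC9, all lower, against 5.84% of all genes). In shSF3B4 4 were called (CCDC9 and CCDC80 higher, CCDC71L and CCDC50 lower, against 6.99%). Calls numbered 2 in shU2AF2 (CCDC9 higher, CCDC71L lower, against 6.49%) and 1 in shZNF384 (CCDC71L, higher, against 0.646%). In shPCBP2 0 were called by limma, against 1.39%. There 6 CCDC genes had an unadjusted p under 0.05 by limma, and the share of all genes at that looser threshold was not computed. Calls against the other 5 knockdowns measure distance from those knockdowns and not from shControl. In shHDAC1 CCDC127 had a mean of 0.08, equal to shControl, CCDC50 had 0.345 against 0.39, and CCDC9 had 0.365 against 0.327. None of these shHDAC1 differences passed against shControl. CCDC9 in shPABPN1 had 0.37 and CCDC50 in shSF3B4 had 0.34, and neither passed against shControl. When 1 library of the named knockdown was left out, the shPABPN1 calls of CCDC97, CCDC50 and CCDC71L held both times. The shPABPN1 calls of CCDC127, CCDC77, CCDC58 and CCDC47 were lost without replicate 1 (adjusted p from 0.0508 to 0.403), those of CCDC9, CCDC124 and CCDC25 without replicate 2 (0.178 to 0.225), and that of CCDC12 without either (0.160 and 0.187). The CCDC9 difference in shPABPN1 went from -0.185 to -0.115 without replicate 2. Such a fit leaves 1 library in the group, and in each knockdown fewer genes of the whole table were called as well. A lost call alone therefore does not set these CCDC genes apart. All 3 calls in shHDAC1 and the one in shZNF384 were lost without either library. In shSF3B4 the call of CCDC50 was lost without either library, and those of CCDC9 (adjusted p = 0.0877), CCDC71L (0.0589) and CCDC80 (0.281, with a difference of 0.0249 against 0.0399) without replicate 1, while in shU2AF2 CCDC9 was lost without replicate 2 (0.0542) and CCDC71L held. An F-test among the 6 knockdowns called 7 of the 60, the same 7 genes as the comparisons with shControl (12.9% of all genes).

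Replicate libraries differed more for the median CCDC gene than for the median gene of the table, without matching on PDUI level or on depth, which is unknown. The median within-group SD of the 60 complete CCDC genes was 0.0708, against 0.0511 over 11353 complete genes. Of the 7 called genes CCDC80 (0.0115), CCDC71L (0.0123), CCDC127 (0.0130) and CCDC77 (0.0252) were among the 5 with the smallest SD, beside CCDC90B (0.0213). This spread enters the test that made the calls, so small SDs among called genes are no separate result. The shControl means of these called genes also lay towards the ends of the scale, at 0.163 or below or, for CCDC77, at 0.983. The largest SD was that of CCDC157 (0.183), which had 0.70 in shControl replicate 1 and 0.17 and 0.19 in the other 2. CCDC43 followed (SD 0.166) and ran from 0.01 in an shHDAC1 library to 0.83 in an shU2AF2 library. CCDC134, a secreted protein with an SD of 0.138, had 1 in both shU2AF2 libraries and a mean of 0.737 in shControl, and did not pass. The genes in this paragraph that are not among the 7 were chosen after their values were seen. An entry of exactly 1 was found 104 times among 987 CCDC values, in 23 genes, and no rise can be measured above it. CCDC18, CCDC69, CCDC103, CCDC173, CCDC184, CCDC191 and CCDC9B lacked a value in 1 to 4 libraries.

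CCDC74A and CCDC74B are copies on chromosome 2 whose last exons are near-identical, and their values are uncertain for that reason. The CCDC74B model is also annotated as a transcript with a retained intron. Its last exon overlaps an exon of MED15P9 on the other strand, which adds to the uncertainty. The last 30 bases of CCDC74A and CCDC74B are the same.
CCDC74A: aaactgaaAATAAAgcttgtttatttccaa
CCDC74B: aaactgaaAATAAAgcttgtttatttccaa
The capitals again mark AATAAA, and the ends lie at chr2:131533637-131533666 on the plus strand and chr2:130139287-130139316 on the minus strand. Over their last exons of 398 and 404 bases, 98.2% of aligned bases were identical, with 7 mismatches and 6 gap positions. PDUI ran from 0.31 to 0.48 for CCDC74A and from 0.30 to 0.45 for CCDC74B, and the 2 values were within 0.05 of each other in 12 of 15 libraries. Neither gene was called in the fit of all 15 libraries. With only the 12 knockdown libraries both were called in shPABPN1 against the other 5, and without shControl replicate 1 CCDC74B was called in shPABPN1 against shControl. How reads that match both copies were counted is not given in the sources used here.

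Genes that work with CCDC proteins were read from the same comparisons with shControl. CCDC22 and CCDC93 are subunits of the Commander complex, which returns membrane proteins from endosomes to the cell surface. Neither was called: CCDC22 had shControl values of 0.82, 0.89 and 0.86, and CCDC93 had 0.81, 0.97 and 0.90, with 1 in both shU2AF2 libraries and 1 and 0.99 in shSF3B4. Of 21 other Commander and WASH genes in the table, 1 rose in each of shPABPN1, shSF3B4, shU2AF2 and shZNF384, where 3.99%, 4.26%, 5.88% and 1.44% of all genes rose, and 1 fell in shU2AF2, where 1.39% did. The gene that rose was COMMD3 in each case, from 0.183 ± 0.0115 (SD, n = 3) in shControl to 0.390 in shPABPN1 (adjusted p = 0.000153, limma), 0.325 in shSF3B4, 0.280 in shU2AF2 and 0.3 in shZNF384, and the gene that fell was VPS29 (-0.0467, adjusted p = 0.0473, limma). Of 33 centriole and centriolar satellite genes in the table, 31 were tested in shPABPN1, 32 in shSF3B4 and 31 in shU2AF2. The 1 that fell in shPABPN1 was CEP131 (0.290 to 0.185), where 0.725% of all genes fell. The 1 that rose in shSF3B4 (0.0200 to 0.0650) and in shU2AF2 (to 0.05) was CEP250, where 4.26% and 5.88% of all genes rose. Its values lie near the bottom of the scale. Of 22 spliceosome and exon junction genes, 4 rose in shSF3B4 (4.26% of all genes did), 4 in shU2AF2 (5.88%) and 2 in shPABPN1 (3.99%), and none fell in these 3 by limma. PLRG1 rose in shU2AF2 from 0.313 to 0.835 (adjusted p = 0.000153, limma) and AQR in shSF3B4 from 0.0867 to 0.175 (adjusted p = 7.89e-05, limma), and ISY1 rose in shPABPN1 (0.0900 to 0.270) and in shU2AF2 (to 0.190). The median differences of the spliceosome list were 0.0300 in shSF3B4 and 0.0150 in shU2AF2, against 0.0117 over all genes in both. Whether last exons of the partner genes, COMMD3 and ISY1 among them, overlap exons of other genes is not given here. Their values are uncertain to that extent.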

How the data were processed

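PDUI of 13056 transcripts, 1 per gene, in 15 libraries was taken as the authors deposited it, as a fraction from 0.001 to 1 on genome build hg38, per the submitters' processing notes. Which aligner, site caller and annotation were used is not given in the sources used here. Without read counts, depth is unknown. Libraries lacked a value for 1.37% to 4.49% of genes. Mean PDUI over the 11353 complete genes ran from 0.522 in shControl replicate 1 to 0.585, and the other shControl libraries had 0.560 and 0.561.

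Values entered limma 3.58.1 in R 4.3.3 untransformed. All 15 libraries entered 1 fit of group means, with eBayes moderation along a mean trend (8 residual and 1.06 prior degrees of freedom). Tests were two-sided, with Benjamini-Hochberg adjustment over all genes tested in a comparison and a call at an adjusted p under 0.05. Testing a gene needed values in both libraries of the knockdown and in 2 or more of shControl, or, for contrasts among knockdowns, in all 12. The script was tested on simulated data. Groups come from the titles; the 2 shSF3B4 columns were assigned to their group only, since titles and library names number them differently, and their numbers here follow the columns.

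Members, role lists and partner lists were chosen with earlier results of these data known. Named were all members called against shControl, up to 6 called only otherwise, the 3 highest and 3 lowest in shControl, and up to 3 called genes of each partner list. CCDC22, CCDC93, CCDC51, CCDC113, CCDC74A, CCDC74B and CCDC85C, and members named for their spread, were chosen after their values were seen. Alternatives were centring, an arcsine square root scale, only the groups compared, only complete genes, a replicate block and leaving out each library. Last exons come from GENCODE release 29, joined on the transcript identifier without its version; all 67 matched, 35 with the same version.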

Additional observations from a re-analysis of the deposited data

Results flagged for a closer look

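For 7 CCDC genes PDUI differed among the 6 knockdowns by limma's F-test, in which the shControl means do not enter. These were CCDC71L (adjusted p = 0.000337), CCDC9 (adjusted p = 0.00236), CCDC50 (adjusted p = 0.00302), CCDC97 (adjusted p = 0.00349), CCDC127 (adjusted p = 0.00672), CCDC77 (adjusted p = 0.0189) and CCDC80 (adjusted p = 0.0354). The distance from the lowest to the highest knockdown mean was widest for CCDC50 (0.550), followed by CCDC9 (0.385) and CCDC97 (0.240). It was 0.145 for CCDC71L and CCDC77, 0.0950 for CCDC127 and 0.0595 for CCDC80. The calls of CCDC71L, CCDC9, CCDC50, CCDC97 and CCDC127 held in 15 of 15 alternative fits, that of CCDC77 in 11 and that of CCDC80 in 6.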

How the results depend on the processing

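Of the 33 signed calls of a CCDC gene, none changed direction over 222 recomputations under the alternatives. These reuse most or all of the libraries behind the calls, so a kept direction is no separate support. The call was kept in 140 and lost in 82. The 7 F-test calls, which have no direction, kept it in 92 and lost it in 13 of 105. With libraries centred on their medians, CCDC calls against shControl went from 5 to 3 in shPABPN1 (2 higher, 1 lower) and from 1 to 0 in shPCBP2. In shSF3B4 and in shU2AF2 they went from 3 to 1 (CCDC9, higher, in both). Over all genes, calls fell from 579 to 362 in shPABPN1 and from 145 to 4 in shPCBP2. They fell from 661 to 210 in shSF3B4 and from 899 to 391 in shU2AF2. Against the other 5 knockdowns CCDC calls went to 1 in shHDAC1 (lower), 5 in shPABPN1 (4 higher, 1 lower) and 2 in shSF3B4 (1 each way). They went to 1 in shU2AF2 (higher) and 0 in shZNF384. Over all genes, calls went from 669 to 204 in shHDAC1, from 1288 to 898 in shPABPN1 and from 801 to 382 in shSF3B4. In shU2AF2 they went from 744 to 336 and in shZNF384 from 74 to 1. With only the 2 groups compared, 0 were called in shPABPN1, shPCBP2 and shSF3B4, where 0, 2 and 186 genes of the whole table were called. With a replicate block (without shSF3B4) 4 CCDC genes were called in shPABPN1 and 3 in shU2AF2 (CCDC71 in place of CCDC50). Of all genes 233 and 534 were called there. The CCDC count was 0 in shPCBP2, shHDAC1 and shZNF384, where 7, 6 and 3 genes of the whole table were called. Between these groups, the differences of replicate 1 from replicate 2 over complete genes correlated at -0.012 to 0.047. Whether same-numbered libraries were handled together is not known. This check cannot decide it, because the depth behind each difference is unknown. On the arcsine square root scale CCDC calls against shControl were 4 in shPABPN1 (without CCDC77), 2 in shSF3B4 (without CCDC80) and 2 in shU2AF2 (without CCDC50). Of all genes 607, 672 and 896 were called there, in the same order. Leaving out 1 library gave, against shControl, 4 to 6 calls in shPABPN1, 2 to 3 in shSF3B4 and in shU2AF2, and 0 to 1 in shHDAC1, shPCBP2 and shZNF384; against the other 5, 6 to 9 in shPABPN1, 0 to 3 in shSF3B4, 1 to 3 in shU2AF2, and 0 in shHDAC1, shPCBP2 and shZNF384; and 6 to 8 in the F-test. Without shControl replicate 1 the counts were 6 in shPABPN1 (CCDC74B added), 2 in shSF3B4 (without CCDC80) and 2 in shU2AF2 (without CCDC50). They were 0 in shPCBP2 and 1 in shZNF384 (CCDC71L). Of all genes 1048, 536, 788, 58 and 63 were called there, in the same order. Without 1 of its 2 libraries each knockdown but shHDAC1 had fewer calls over the whole table against shControl, and all had fewer against the other 5. With 2 libraries a group and unknown depth, small differences may be missed.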
